A study of Homo sapiens with 3 samples.

Results

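The GALNT family of enzymes that start O-linked glycosylation was measured, together with the fucosyltransferase gene FUT2 and the mucin gene MUC22, in BTSH cells on 3 HuGene 2.0 ST arrays. The members were chosen by symbol. They are the genes of mucins and of 10 families of Golgi glycosyltransferases (initiating, galactosyl-, N-acetylglucosaminyl-, sialyl- and fucosyltransferases) for which an array feature carries a gene name, and antisense genes and pseudogenes were left out. This gave 21 genes with 29 features, of 14884 named genes and 53617 features on the array. Of the 21 genes, 19 belong to the GALNT family, and 8 of the 11 families searched had 0 named members. The values therefore describe mainly the initiating enzymes and not mucins and glycosyltransferases in general, and MUC1, the main mucin of luminal breast cells, has no named feature here.

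BTSH is a single clone picked from the HER2+ breast cancer cell line BT474 for its increased response to trastuzumab, an antibody against HER2. All 3 cultures were described as biological replicates, had received no treatment and were grown in DMEM with serum. Arrays of the parental BT474 line and of resistant BTRH cells were not used here. The series therefore offers 1 group and no comparison between cell lines, and nothing was tested.

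O-linked glycosylation of the mucin type begins in the Golgi, where a GALNT enzyme transfers N-acetylgalactosamine (GalNAc) from its UDP-sugar to a serine or threonine. The family members differ in the peptides they accept, and some prefer a peptide that already carries GalNAc, so several enzymes together fill the densely glycosylated stretches of a mucin. Galactose added to GalNAc gives core 1, which can then be branched, sialylated or fucosylated. Short, unextended O-glycans such as the Tn antigen (GalNAc alone) and its sialylated form are well known in breast carcinoma.

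Signals are RMA values on the log2 scale, and a difference of 1 is a 2-fold change. The background of an array was set at the 95th percentile of 106 features, those of late cornified envelope genes, vomeronasal receptor genes and the genes of keratin-associated proteins, none known to be used by breast epithelium. Genes that exceeded it on each of the 3 arrays are called above background. This level was 6.70 in replicate 1, 7.08 in replicate 2 and 6.83 in replicate 3. In the same order the 90th percentile of these features was 5.33, 5.54 and 5.61, and the 99th was 7.18, 7.44 and 7.69. Each feature has probes of its own, so the signal of a gene was compared between arrays and with the background but not with the signal of another gene. The epithelial identity of the cells was checked with markers. All 5 named luminal markers of 6 listed (EPCAM, KRT18, KRT19, ESR1 and GATA3) were above background. For KRT18 this holds for the feature with the highest mean, and its other feature (6.73 to 6.98) passed in 2 arrays. The 5 named markers of leukocytes, fibroblasts and endothelium (CD14, DCN, PECAM1, KDR and VWF, of 12 listed) had signals from 2.98 to 4.06. These 5 were above background in 0 arrays.

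Background was exceeded in every array by 7 of the 21 genes, in 2 arrays by 1 gene and in no array by 13. The same call was met by 30.4% of all named genes and by 36.5% of the named protein-coding genes, so the share of the members (33.3%) lay near that of the genes in general. All 7 belong to the GALNT family. They are GALNT1, GALNT3, GALNT6, GALNT7, GALNT10, GALNT11 and GALNT12, out of 19 family members. GALNT2 passed in 2 arrays, and the other 11 family members, FUT2 and MUC22 in none. In RNA from a whole culture, fewer cells with a transcript and less of it per cell cannot be told apart.

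**Figure D1:**
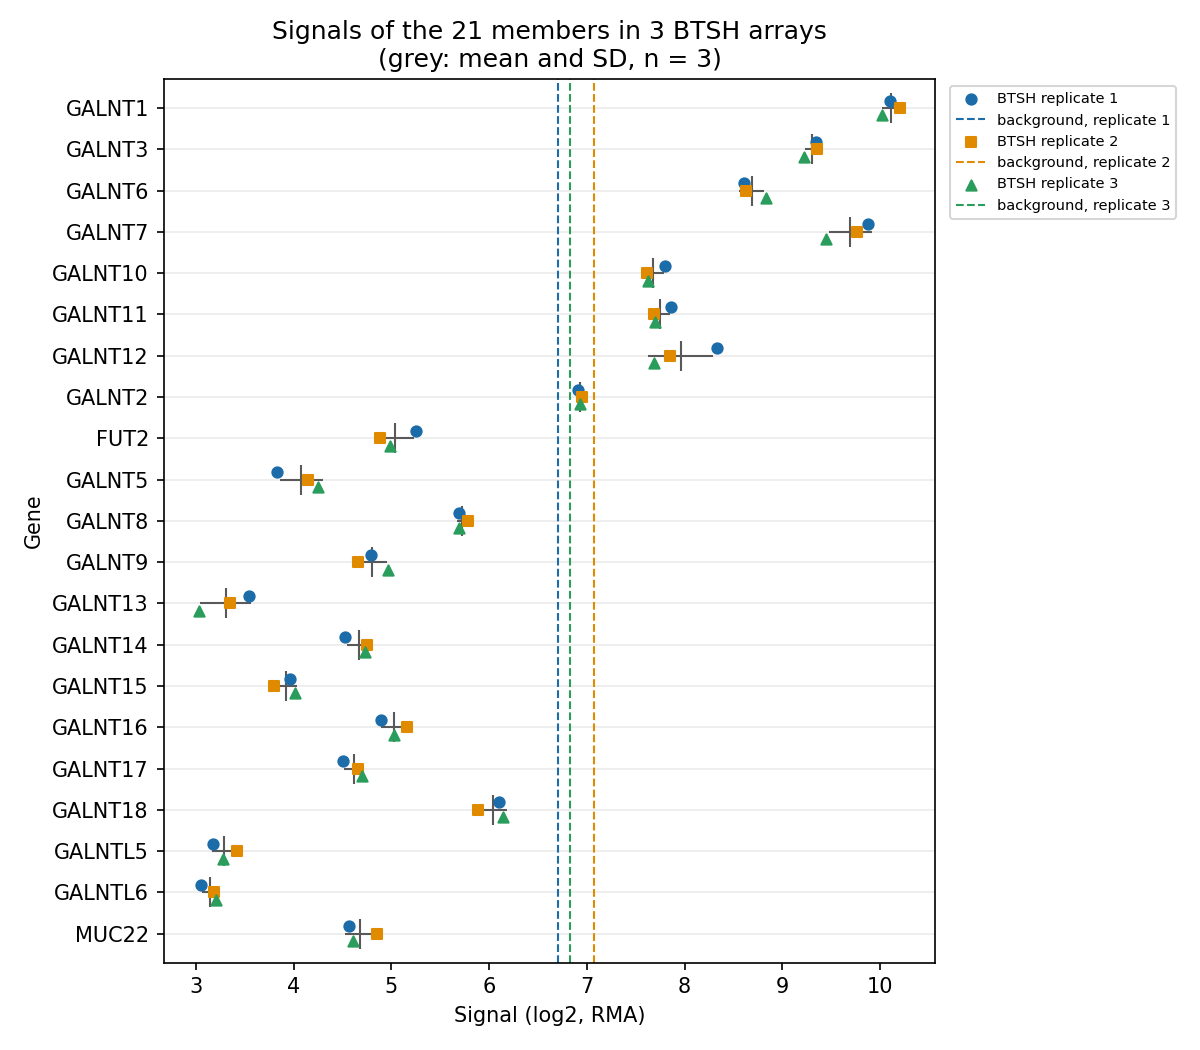
Signals of the 21 genes (log2, horizontal axis) in BTSH replicates 1, 2 and 3 (circles, squares and triangles), with the mean and SD in grey and the background of each array as a dashed line. The 7 genes at the top lie to the right of all 3 lines, GALNT2 lies between them, and the 13 genes below lie to the left.

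The promoters of 5 GALNT genes are shown because they set genes above background beside one that was not, and genes that differed between cultures beside one that did so little. The sequences are the 250 bases before the annotated start in RefSeq (GRCh38.p14, plus strand), in lower case with CG dinucleotides, the sites of DNA methylation, in capitals. GALNT12 (chr9:98807420-98807669) and GALNT7 (chr4:173168561-173168810) had the largest spread between arrays among the 7 genes above background. GALNT10 (chr5:154190483-154190732) and GALNT11 (chr7:152074787-152075036) were above background with a small spread. GALNTL5 (chr7:151956196-151956445), the neighbour of GALNT11 among protein-coding genes on chromosome 7, was above background in 0 arrays.
GALNT12: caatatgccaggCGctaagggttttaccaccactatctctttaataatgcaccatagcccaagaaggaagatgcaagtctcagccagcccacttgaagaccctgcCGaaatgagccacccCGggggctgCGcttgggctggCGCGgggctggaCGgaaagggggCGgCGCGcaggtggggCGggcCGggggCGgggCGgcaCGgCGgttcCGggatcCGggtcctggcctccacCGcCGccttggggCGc
GALNT7: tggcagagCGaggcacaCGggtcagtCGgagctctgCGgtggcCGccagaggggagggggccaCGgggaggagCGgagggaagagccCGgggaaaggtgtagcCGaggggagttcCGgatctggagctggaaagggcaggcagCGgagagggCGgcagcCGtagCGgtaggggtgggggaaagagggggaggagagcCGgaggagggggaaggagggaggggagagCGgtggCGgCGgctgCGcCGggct
GALNT10: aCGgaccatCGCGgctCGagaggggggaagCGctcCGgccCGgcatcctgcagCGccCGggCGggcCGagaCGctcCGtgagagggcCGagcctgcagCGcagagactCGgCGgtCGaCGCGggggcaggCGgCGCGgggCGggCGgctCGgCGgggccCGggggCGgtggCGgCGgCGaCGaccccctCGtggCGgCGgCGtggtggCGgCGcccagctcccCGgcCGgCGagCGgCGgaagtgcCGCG
GALNT11: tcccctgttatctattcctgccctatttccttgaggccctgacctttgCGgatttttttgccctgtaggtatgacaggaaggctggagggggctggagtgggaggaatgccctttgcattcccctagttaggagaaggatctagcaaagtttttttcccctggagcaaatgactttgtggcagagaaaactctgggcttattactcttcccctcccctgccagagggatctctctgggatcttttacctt
GALNTL5: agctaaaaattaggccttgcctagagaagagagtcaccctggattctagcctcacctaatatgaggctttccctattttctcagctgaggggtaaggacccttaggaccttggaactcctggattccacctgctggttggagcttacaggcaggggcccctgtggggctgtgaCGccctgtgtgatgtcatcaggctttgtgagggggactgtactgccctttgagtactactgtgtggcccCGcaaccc

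CG dinucleotides numbered 46 in the GALNT10 window, 21 in that of GALNT12 and 20 in that of GALNT7, against 1 for GALNT11 and 2 for GALNTL5. A low count thus occurred both with a signal above background and with one below it. These counts hold for the annotated starts, and which start the cells used was not measured. Starts of 1 gene can differ, as for GALNT1 with counts of 4, 39 and 52. The set of promoters used here held 17 of the 21 genes, with 22 starts in all. It lacked GALNT5, GALNT6, GALNT8 and GALNT18, of which GALNT6 was above background. The median count of all 35116 promoters was 11. Taking the highest count at any start of a gene, 5 of 6 genes above background exceeded this median. So did 5 of 10 genes above background in no array and 51.5% of all 27305 genes counted the same way. That share was not counted separately for all genes above background, so the contrast is not read as a trait of these genes. The letters ACGTG, searched on both strands, which also lie within the E-box CACGTG, were found at 5 of the 22 starts and in 18.5% of all promoters. They belong to GALNT9, GALNT13, GALNT17, GALNTL6 and MUC22, and thus lie among the 13 starts of genes above background in 0 arrays and not among the 8 starts of genes above it in all 3. Over all named genes the letters were found at 23.2% of starts of genes above background and at 18.5% of starts of genes above it in no array. These matches describe the letters of the windows only, and binding was not measured.

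Among the enzymes above background, GALNT1, GALNT3 and GALNT6, start O-glycans on bare peptides. GALNT1, a widely expressed family member, had signals of 10.10, 10.21 and 10.02 in replicates 1, 2 and 3 (10.11 ± 0.09, SD, n = 3). GALNT3, which glycosylates the phosphate-regulating hormone FGF23, had 9.35, 9.35 and 9.22 (9.31 ± 0.07). GALNT6, an enzyme known from breast carcinoma, had 8.60, 8.63 and 8.83 (8.69 ± 0.12). All 3 genes were at least 1.55 above the background of each array, and their highest and lowest arrays were no more than 1.17-fold apart. GALNT6 was highest in replicate 3, where GALNT1 and GALNT3 were lowest.

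GALNT7 and GALNT10 encode enzymes that act mainly on peptides already carrying GalNAc. GALNT7 gave 9.88, 9.77 and 9.45 in replicates 1, 2 and 3 (9.70 ± 0.22), and all 3 values were at least 2.62 above the background. The values of GALNT10 were 7.80, 7.62 and 7.62 (7.68 ± 0.10). In replicate 2 GALNT10 was 0.54 above the background, the smallest margin of the 7 genes.

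GALNT11, whose enzyme modifies receptors of the LDL receptor family, had signals of 7.87, 7.69 and 7.69 (7.75 ± 0.10). Like GALNT10, it was highest in replicate 1 and nearly equal in replicates 2 and 3. GALNT12, best known from the colon, had 8.34, 7.86 and 7.69 (7.96 ± 0.34), the largest SD of the 21 genes. With background at the 99th percentile, passed by 22.0% of all named genes, 5 of the 7 genes remained above it, and GALNT10 and GALNT12 did not.

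GALNT2, a widely expressed enzyme that acts on bare peptides, lay at the background. The feature that stood for it had signals of 6.90, 6.95 and 6.93 (6.93 ± 0.02, n = 3), the smallest SD of the 21 genes. It passed the background of replicates 1 and 3 and missed that of replicate 2 by 0.13. The other feature of GALNT2 had 4.44, 4.44 and 4.43 and was above background in 0 arrays. Without replicate 2, GALNT2 joined the genes above background, which were then 8.

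**Figure D2:**
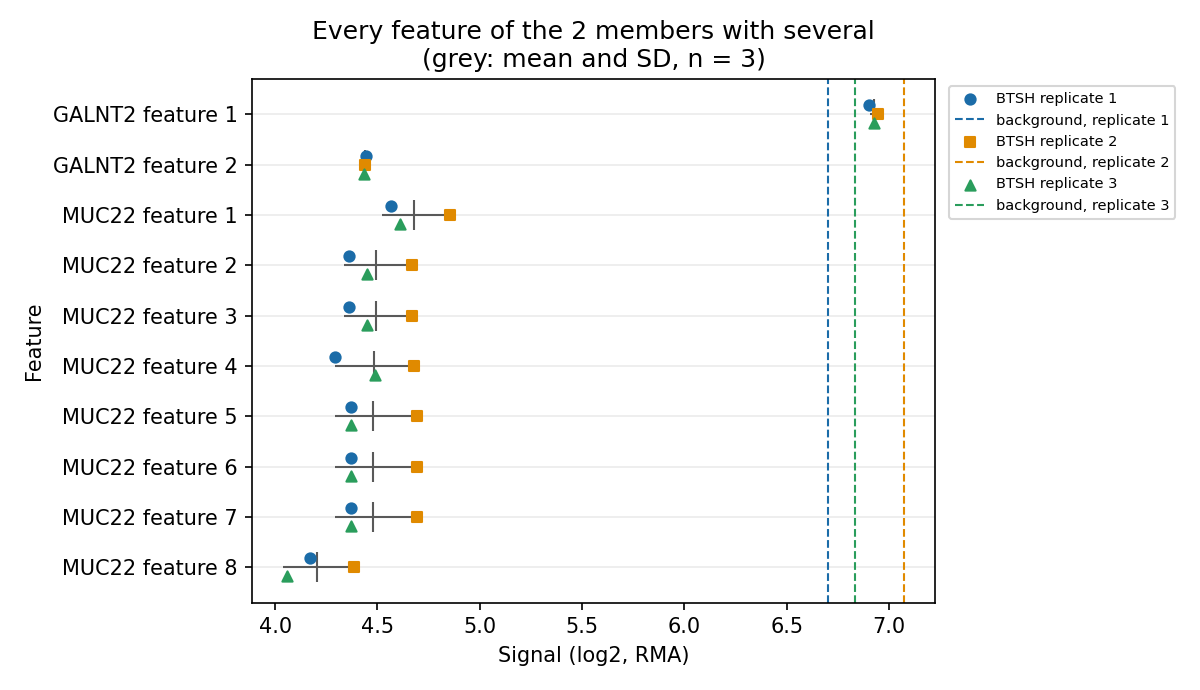
Signals (log2, horizontal axis) of each feature of GALNT2 and MUC22 in the 3 BTSH arrays, with the mean and SD in grey and the background of each array as a dashed line. Feature 1 of GALNT2 lies between the background lines and feature 2 left of them, and the 8 features of MUC22 lie between 4.06 and 4.85, left of every background line.

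Of the GALNT genes that were above background in no array, GALNT18 and GALNT8 came closest to it. GALNT18 had signals of 6.10, 5.88 and 6.14 (6.04 ± 0.14), and GALNT8 of 5.69, 5.78 and 5.69 (5.72 ± 0.05). With background at the 90th percentile, which 50.5% of all named genes passed, these genes and GALNT2 were above it in all 3 arrays and the count rose to 10. The other 9 stayed below this lower level too in each array.

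GALNT9, GALNT13 and GALNT17 are known from the nervous system. GALNT9 gave 4.79, 4.66 and 4.97, and GALNT17, a gene of the Williams-Beuren region, gave 4.51, 4.66 and 4.70. GALNT13 had 3.54, 3.35 and 3.03 (3.31 ± 0.26), the largest spread among the genes above background in no array. Its highest and lowest arrays were 1.43-fold apart, at signals more than 3 below the background. All 3 genes were thus far from the background in each array.

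GALNTL5, a testis gene, had 3.17, 3.42 and 3.28, and GALNTL6 had 3.05, 3.18 and 3.20. On chromosome 7 GALNTL5 is next to GALNT11, and on chromosome 4 GALNTL6 is next to GALNT7, counting protein-coding genes in RefSeq. In both neighbouring pairs 1 gene was above background in all 3 arrays and the other in none. The share of such pairs among all neighbouring genes was not counted, so this is not read as a trait of the family. The other members of the family above background in no array were GALNT5 (3.83, 4.15 and 4.25), GALNT14 (4.52, 4.75 and 4.73), GALNT15 (3.96, 3.80 and 4.01) and GALNT16 (4.89, 5.16 and 5.03). GALNT14 is known for modifying death receptors of the ligand TRAIL. A signal below background does not show that a transcript is lacking, since it also depends on the probes.

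FUT2 encodes the secretor enzyme, an α-1,2-fucosyltransferase that makes the H antigen of secretions. Its signals were 5.25, 4.88 and 4.98 (5.04 ± 0.19), below background in each array. MUC22, a mucin gene of the major histocompatibility region on chromosome 6, has 8 features with 5 different sets of values, so features that repeat the same values do not count as separate measurements. The feature with the highest mean had 4.57, 4.85 and 4.61 (4.68 ± 0.16). All 8 features were highest in replicate 2 and above background in 0 arrays, and over them the values ranged from 4.06 to 4.85. At this level a gene is not distinguished from background, and 29.2% of all named genes were highest in replicate 2.

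Most of the 7 genes above background varied little between cultures, whereas GALNT12 and GALNT7 varied more. The SDs of the 7 genes ranged from 0.07 to 0.34. Their median was 0.10, against 0.11 over all 4528 genes above background. The highest and lowest arrays were 1.09-fold to 1.57-fold apart. Only GALNT12 reached 1.5-fold, which 2.25% of all genes above background did. The SD of GALNT12 was larger than that of 98.6% of genes above background, and that of GALNT7 larger than that of 90.6%.

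**Figure D3:**
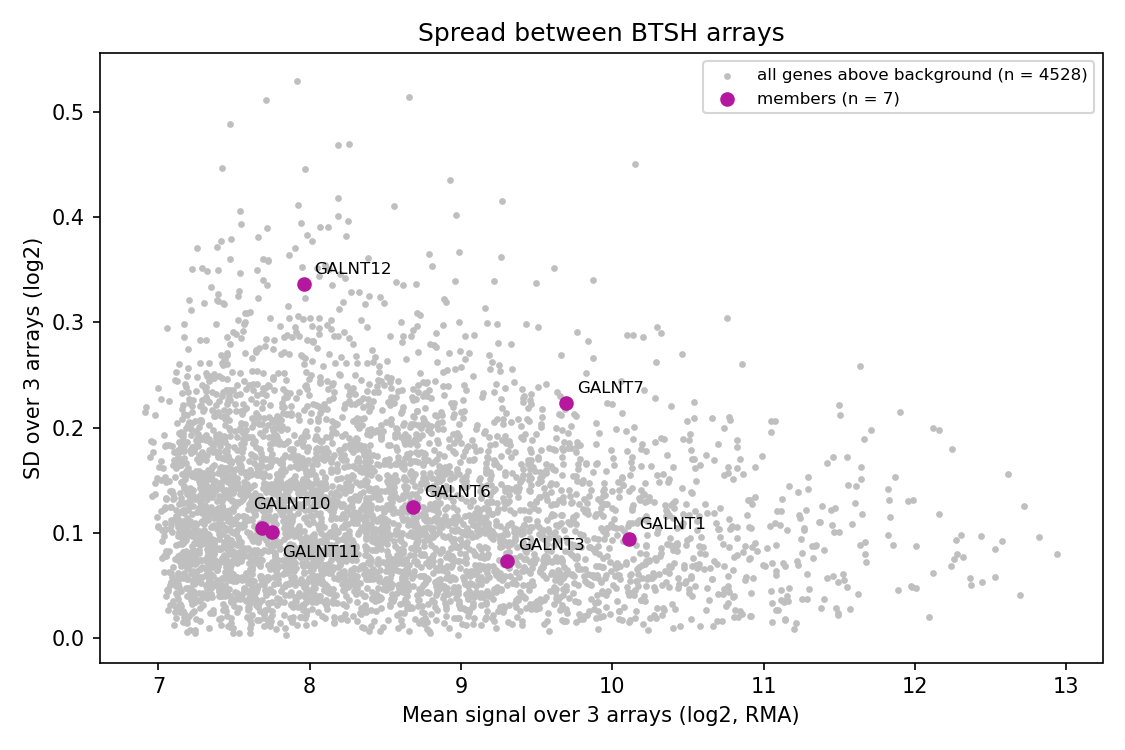
SD over the 3 arrays (vertical axis, log2) against the mean signal (horizontal axis, log2) of the 4528 genes above background (grey) and the 7 GALNT genes among them (coloured and named). GALNT12 and GALNT7 lie high, with SDs of 0.34 and 0.22, and the other 5 lie between 0.07 and 0.12.

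GALNT12 and GALNT7 were the genes with their highest signal in replicate 1, the next in replicate 2 and the lowest in replicate 3. For GALNT12, replicate 1 was 1.40-fold above replicate 2 and 1.57-fold above replicate 3. Without replicate 1 the remaining arrays of GALNT12 were 1.12-fold apart, so that its place past 1.5-fold rests on the distance between replicates 1 and 3. For GALNT7, replicate 1 was 1.08-fold above replicate 2 and 1.35-fold above replicate 3. This order of the arrays is common here. It was found in 33.4% of all genes above background, and in 62.7% of the 102 genes that were at least 1.5-fold apart. The number of the replicates carries no order of time or dose.

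Over the 7 genes, the mean deviation of an array from the mean of the other arrays was 0.16 in replicate 1, -0.02 in replicate 2 and -0.14 in replicate 3, on the log2 scale. The same mean over all genes above background was 0.05 in replicate 1 and -0.05 in replicate 3. Without GALNT7 and GALNT12, which were picked out here for their spread, the mean deviations of the other 5 genes were 0.06, -0.01 and -0.04. Of the 7 genes, 4 were highest in replicate 1, against 48.1% of all genes above background, and 4 were lowest in replicate 3, against 47.3%. With median centring of the arrays these counts were 5 and 6, and GALNT3, GALNT10 and GALNT11 took the order of GALNT12. Centring moves an array by the same amount for every gene, here up in replicate 1 and down in replicate 3. The shares of all genes were not counted with centring, so these 2 counts are not read as a trait of the 7 genes. GALNT6 alone was highest in replicate 3 (27.4% of all genes above background were), as deposited and with quantile normalization or median centring.

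**Figure D4:**
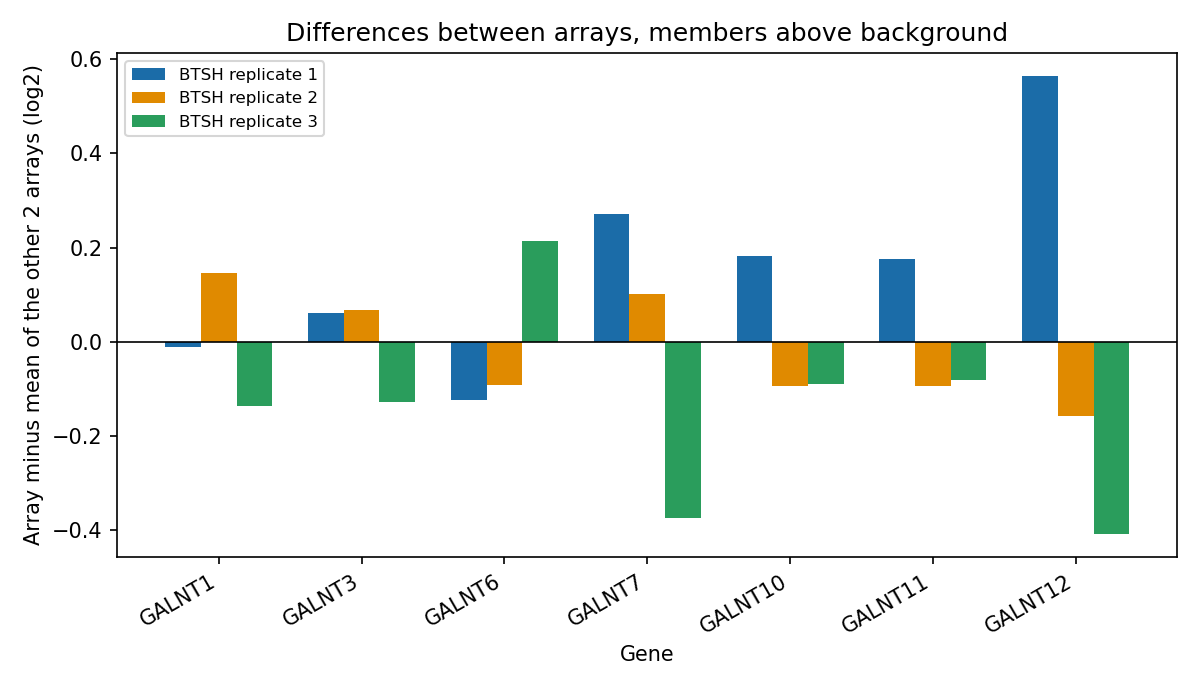
Deviation of each BTSH array from the mean of the other 2 arrays (vertical axis, log2) for the 7 GALNT genes above background, with 1 bar for each replicate. GALNT12 and GALNT7 have the longest bars, 0.56 and 0.27 in replicate 1 and -0.41 and -0.37 in replicate 3, and GALNT6 is the gene with a positive bar in replicate 3 (0.21).

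A list of 21 further genes of sugar nucleotide supply, core 1 synthesis and sialidases was examined, of which 12 have a named feature. Of these 12, 6 exceeded background on each array, 1 on a single array and 5 on no array, where 30.4% of all named genes and 36.5% of the protein-coding ones exceeded it on each array. All 3 named genes of UDP-GlcNAc synthesis were above background. GFPT1, the rate-limiting enzyme of the hexosamine pathway, had 10.56, 10.42 and 10.23 in replicates 1, 2 and 3. GNPNAT1, which acetylates glucosamine phosphate, had 9.29, 8.93 and 9.03 with the feature used, whereas its 2 other features had signals from 3.82 to 4.19 and were above background in 0 arrays. UAP1, which forms the UDP-sugar, had 9.71, 9.51 and 9.43. All 3 were highest in replicate 1, as were 48.1% of genes above background, and their highest and lowest arrays were 1.21-fold to 1.28-fold apart.

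In the supply of CMP-sialic acid, CMAS, which activates sialic acid, was above background (8.16, 8.13 and 8.27). NANP passed in 1 array (6.94, 7.03 and 6.79). GNE, which starts sialic acid synthesis (6.31, 6.14 and 6.19), and NANS (6.31, 6.24 and 6.34) passed in none. In the supply of GDP-fucose, GFUS of the de novo route was above background (7.45, 7.63 and 7.80) and FCSK of the salvage route was not (6.21, 6.13 and 6.13). The lysosomal sialidase gene NEU1 was above it (7.73, 8.02 and 8.10), and NEU3, a sialidase of the plasma membrane, was not (5.77, 5.60 and 5.75). C1GALT1C1 encodes COSMC, the chaperone that the core 1 enzyme needs. It had signals of 6.37, 6.04 and 6.16 and was above background in 0 arrays, while C1GALT1, the core 1 enzyme itself, has no named feature here. GFUS and NEU1 had their highest value in replicate 3 and their lowest in replicate 1, the opposite order to GALNT7 and GALNT12. Above background, GALNT6 and the markers EPCAM, KRT18 and KRT19 had this order too. The other named luminal markers, ESR1 (8.55, 8.69 and 8.59) and GATA3 (8.69, 9.43 and 8.78), did not. Both peaked in replicate 2, and the highest and lowest arrays of GATA3 were 1.67-fold apart. The share of the order of GFUS and NEU1 over all genes was not counted, so this order is not read as a trait of these genes. At the 90th percentile of background 12 of the 12 genes passed, as did 50.5% of all named genes, so that the calls of C1GALT1C1, GNE, NANS, FCSK and NEU3 rest on the level chosen.

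**Figure D5:**
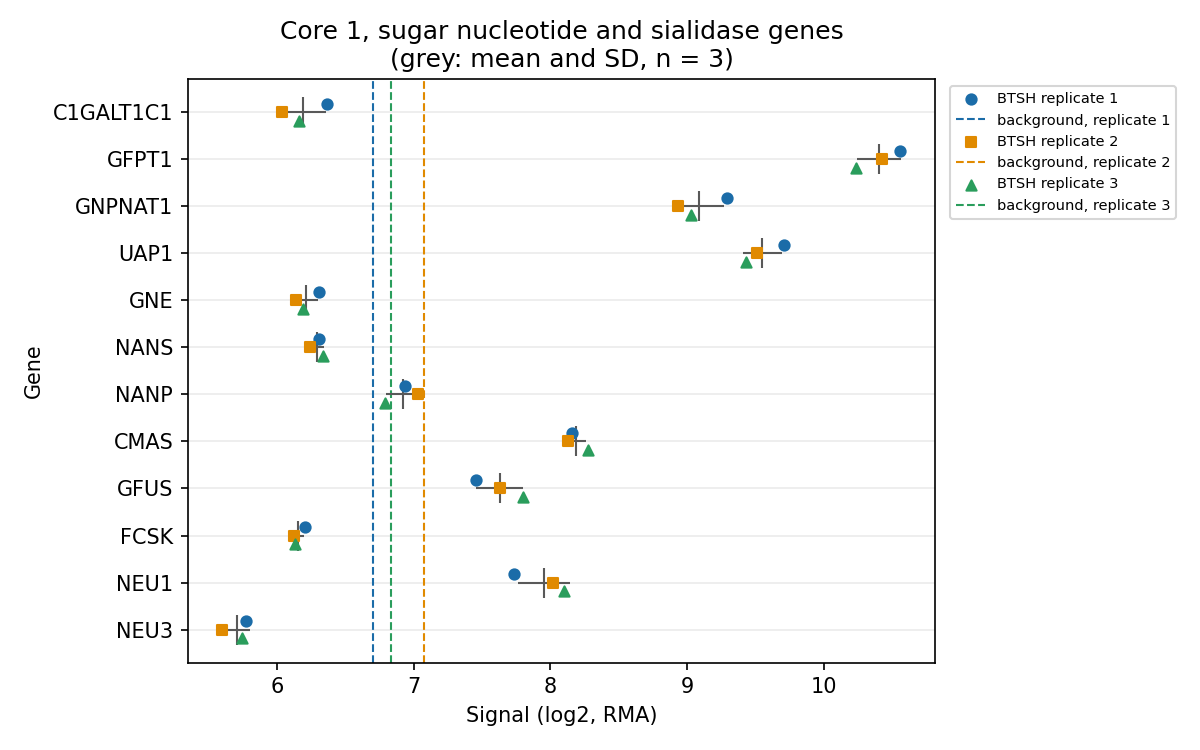
Signals (log2, horizontal axis) of the 12 named genes of core 1 synthesis, sugar nucleotide supply and sialidases in the 3 BTSH arrays, with the mean and SD in grey and the background of each array as a dashed line. GFPT1, GNPNAT1, UAP1, CMAS, GFUS and NEU1 lie right of all lines, NANP lies among them, and the other 5 lie to the left.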

How the data were processed

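Expression was measured in 3 cultures of untreated BTSH cells on HuGene 2.0 ST arrays. Array files had been normalized by the authors with Expression Console 1.4 (RMA), which gave the deposited log2 signals, 53617 for each array. Transcriptome Analysis Console 4.0 is named in the submitters' processing notes too. The build behind the features and whether other arrays were normalized with these are not given in the sources used here. An annotation of the platform named 16098 features, each with 1 gene symbol, and the other 37519 are unnamed here. Symbols were updated through gene identifiers (RefSeq, GRCh38.p14), which changed none of the members. Of the features that met the rule, 7 of 6 genes were left out as antisense genes or pseudogenes. For the 779 genes with more than 1 feature, that with the highest mean was taken. Taste receptor and beta-defensin genes were planned for the background as well, but no feature of them is named. Levels are means ± SD over 3 arrays, whose number limits the precision. At most 83 of the values were identical between any 2 arrays, and each array counts as 1 replicate. The gene list and the members were chosen with earlier results of these data known. All members are named, with the value in each array. The scripts were tested on simulated data. Python 3.11.15, numpy 2.4.6, pandas 2.3.3 and matplotlib 3.10.9 were used.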

Additional observations from a re-analysis of the deposited data

How the results depend on the processing

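The same 7 genes were above background with quantile normalization, median centring, averaged features, and without replicate 1 or 3. Each of the 7 has a single feature and passed in every array. Averaging features or leaving out a replicate could therefore not have removed any of them. Median centring moves the genes and the background of an array by the same amount, so no call could change. Quantile normalization keeps the order of the signals within an array, so calls could hardly change. Neither therefore says how stable the calls are. The count was 5 at the 99th percentile, 10 at the 90th and 8 with the arrays averaged. Leaving out single replicates gave 7 to 8. The gene at least 1.5-fold apart, GALNT12, was lost at the 99th percentile (0 genes), where it was no longer above background, and the count was 0 to 1 when 1 replicate was left out, with 0 without replicate 1 and without replicate 3. With all 21 genes in place of the 7, the mean deviation was 0.0189 in replicate 1 and -0.0277 in replicate 3, a setting that includes genes below background. When 1 replicate was left out, it ranged from 0.12 to 0.17 in replicate 1, from -0.12 to 0.08 in replicate 2 and from -0.17 to -0.08 in replicate 3. The pathway count was 12 at the 90th percentile. The mean of the features gave 5.68 for GALNT2 and 4.47 for MUC22. At the 99th percentile the mean deviation in replicate 1 was 0.07 over the 5 genes left, without GALNT12. Of the alternative counts and summaries, 83 of 89 stayed within 1.5 times the reported count or median SD, or within the spread between arrays. Some could not have moved, such as the counts above background with median centring. For mean deviations the spread allowed was 0.10, against reported values of 0.16, -0.02 and -0.14 in replicates 1, 2 and 3. A change of sign in replicate 2 thus stayed within it. The 83 of 89 therefore says little about how stable these summaries are. Of the alternative levels of single genes, 124 of 126 stayed within the SD between arrays. Most of these levels could not have left it. Median centring does not change a mean over the arrays, and leaving out 1 of 3 arrays moves it by less than the SD. Averaging of features could change GALNT2 and MUC22 alone, and both moved. The count therefore says little about how stable the levels are. No paired analysis was possible because 1 group alone was analysed.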
